A study of Saccharomyces cerevisiae with 15 samples.

Results

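The genes described here are those of *Saccharomyces cerevisiae* named for the synthesis of arginine, histidine, lysine, leucine, isoleucine, valine and tryptophan. They were chosen by name: every gene whose SGD symbol is ARG, HIS, LYS, LEU, ILV or TRP followed by a number, with *ARG5,6*. The rule gave 42 of the 6224 genes on the array, 7 enzymes of arginine synthesis, 7 of histidine, 7 of lysine, 9 of the branched-chain amino acids and 5 of tryptophan. The remaining 7 are regulators, a carrier and an activating enzyme. RNA was measured in the wine yeast QA23, a commercial strain without any introduced mutation named in the labels, grown in rich YPD medium. The study asked how melatonin changes the transcriptome with and without oxidative stress. The 5 conditions were hybridised with 3 arrays each, described by the study as biological replicates. In H, cells received 2 mM H2O2 for 1 h in exponential growth, in MelH they had grown with 5 μM melatonin before the same stress, and in 25MelH with 25 μM melatonin. Mel cells had 5 μM melatonin and no H2O2, and Control cells had neither.

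Budding yeast can build every amino acid from simple carbon and nitrogen compounds. The genes of these pathways are known as targets of general amino acid control, in which starvation for an amino acid raises translation of the activator Gcn4 through the kinase Gcn2, and Gcn4 then raises their transcription. Several pathways also have a regulator of their own that senses an intermediate or end product, such as Lys14 for lysine, Leu3 for leucine and the Arg80, Arg81 and Mcm1 complex for arginine. Rich medium supplies amino acids from outside the cell.

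A level is the log2 of the scanner's processed signal minus the 75th percentile of that array, so it compares a gene with itself between arrays and not with other genes. A gene counted as called when limma gave it a p under 0.05 after Benjamini-Hochberg adjustment for all 6224 genes. The values come from whole cultures, so that fewer cells carrying an RNA and less of it per cell cannot be told apart. Over all genes, which are no independent replicates, r between arrays of the same condition was 0.992 to 0.997. The 75th percentile of the signal was 2274 to 3552 on arrays of stressed cells and 4186 to 5922 on arrays of unstressed cells. Of 11 genes known to respond to peroxide, 9 were called higher and 1 (*CTT1*) lower in H vs. Control, beside 27.2% and 41.2% of all genes. The sum of the levels of these 11 was 7.35 to 7.79 in H, 8.38 to 10.1 in MelH and 9.46 to 11.1 in 25MelH. It was −7.07 to −4.59 in Mel and −3.89 to −2.74 in Control. All 42 members were well above background on every array. Values and labels are those of the scanner files, since 9 of the 15 columns of the normalized matrix that was also deposited hold the values of another sample than their label names.

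**Figure D1:**
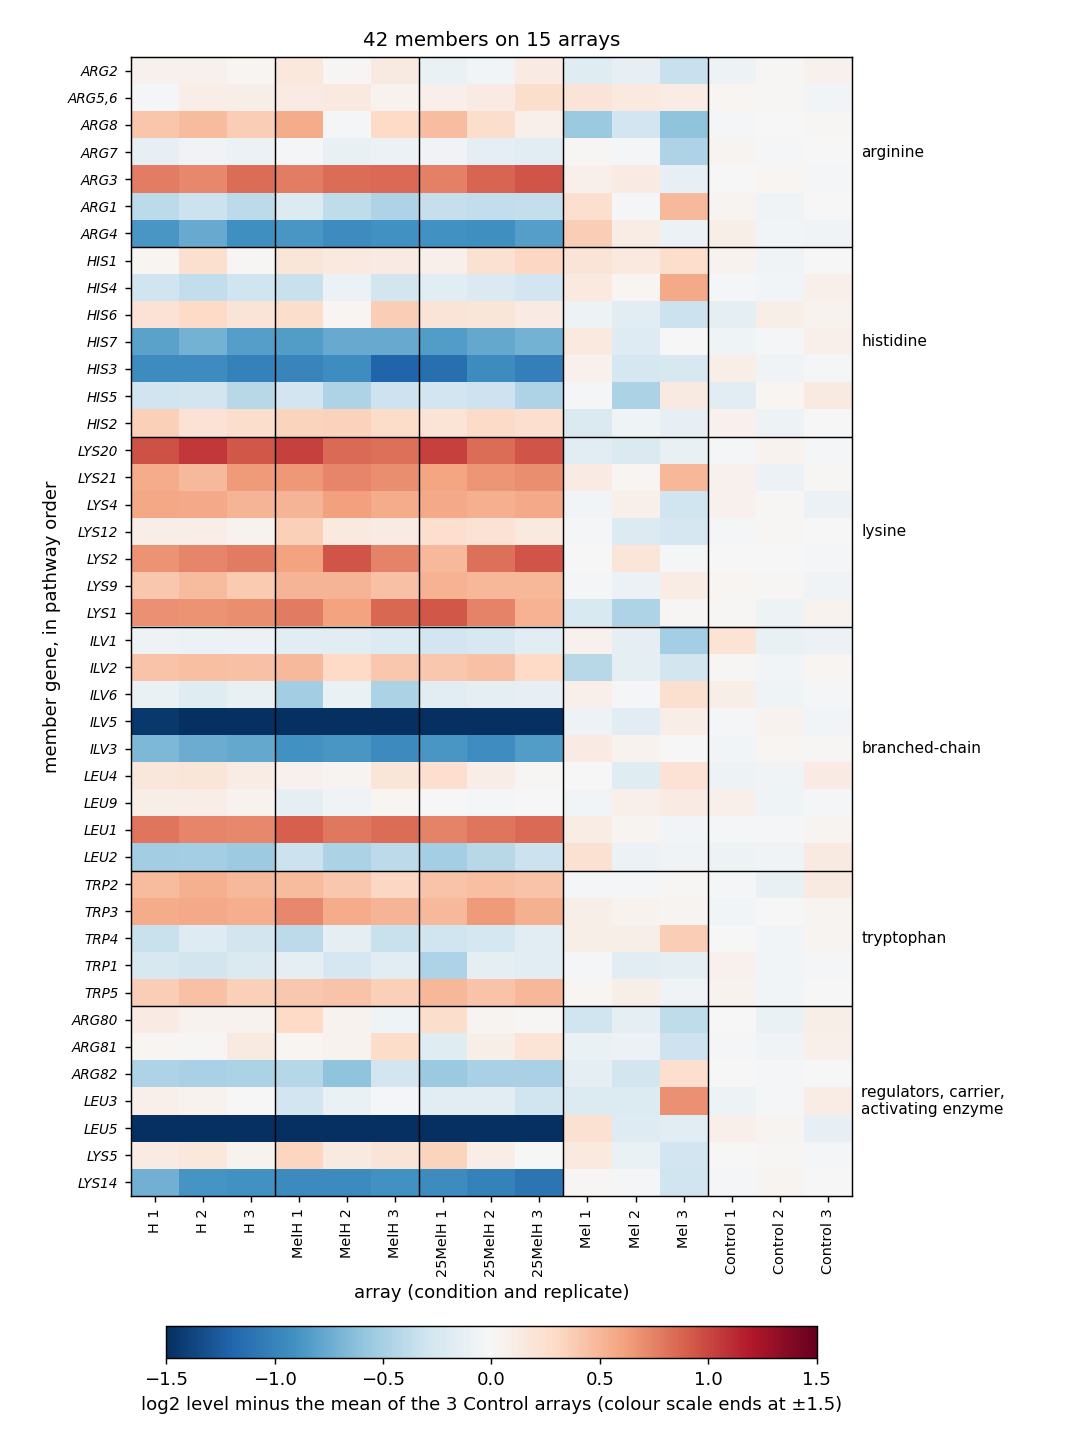
Level of each of the 42 members on each of the 15 arrays, as the log2 level minus the mean of the 3 Control arrays, with members in rows by pathway and arrays in columns by condition; colours end at ±1.5. The 9 stressed arrays resemble each other, with the lysine block higher and *LEU5*, *ILV5* and *LYS14* lower than in unstressed arrays; with spike-in scaling the lysine block is lower too in H vs. Control.

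Oxidative stress (H vs. Control) changed 29 of the 42 members, 15 higher and 14 lower. That is 69% of the members, beside 68.4% of all genes tested, 27.2% of them higher and 41.2% lower. Lysine enzymes were called higher in 6 of 7 cases and lower in 0, relative to the 75th percentile of the array, while on spike-in scaling all 7 were lower. In histidine synthesis 2 enzymes were called higher and 4 lower, in arginine synthesis 2 and 2, in the branched-chain pathway 2 and 3 and in tryptophan synthesis 3 and 2. The median log2 change was 0.56 for the lysine enzymes, 0.39 for tryptophan, 0.05 for arginine, −0.08 for the branched-chain pathway and −0.32 for histidine, beside −0.09 over all genes.

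The directions are relative to the rest of the array. Centring on the array's median, which moved the median of all genes to 0.17, gave 26 members higher and 10 lower. Scaling on the 7 spike-in probes well above background moved that median to −1.51 and called 0 members higher and 42 lower. Counts under a single other setting, here and below, are given without the share of all genes called there. They are therefore no result about the members as against other genes. Set against the median of all genes, the lysine median was higher by 0.65 with the 75th percentile, median centring or the spike-ins, by 0.50 after normexp background correction and by 0.31 after quantile normalization. The first 3 shift every gene of an array alike, so this difference is the same in them by construction. For histidine the difference from all genes was −0.23 in those 3, −0.42 after normexp and −0.58 after quantile normalization. In H vs. Control 15 members were called higher and 9 lower under all 4 scalings that use the array's own genes (75th percentile, median, quantile and normexp), among them 6 lysine enzymes, beside 23.2% and 21.2% of all genes. With the slide as a block 28 members were called, within slide 1 there were 23 and within slide 2 there were 13, where the lysine median was 0.63.

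**Figure D2:**
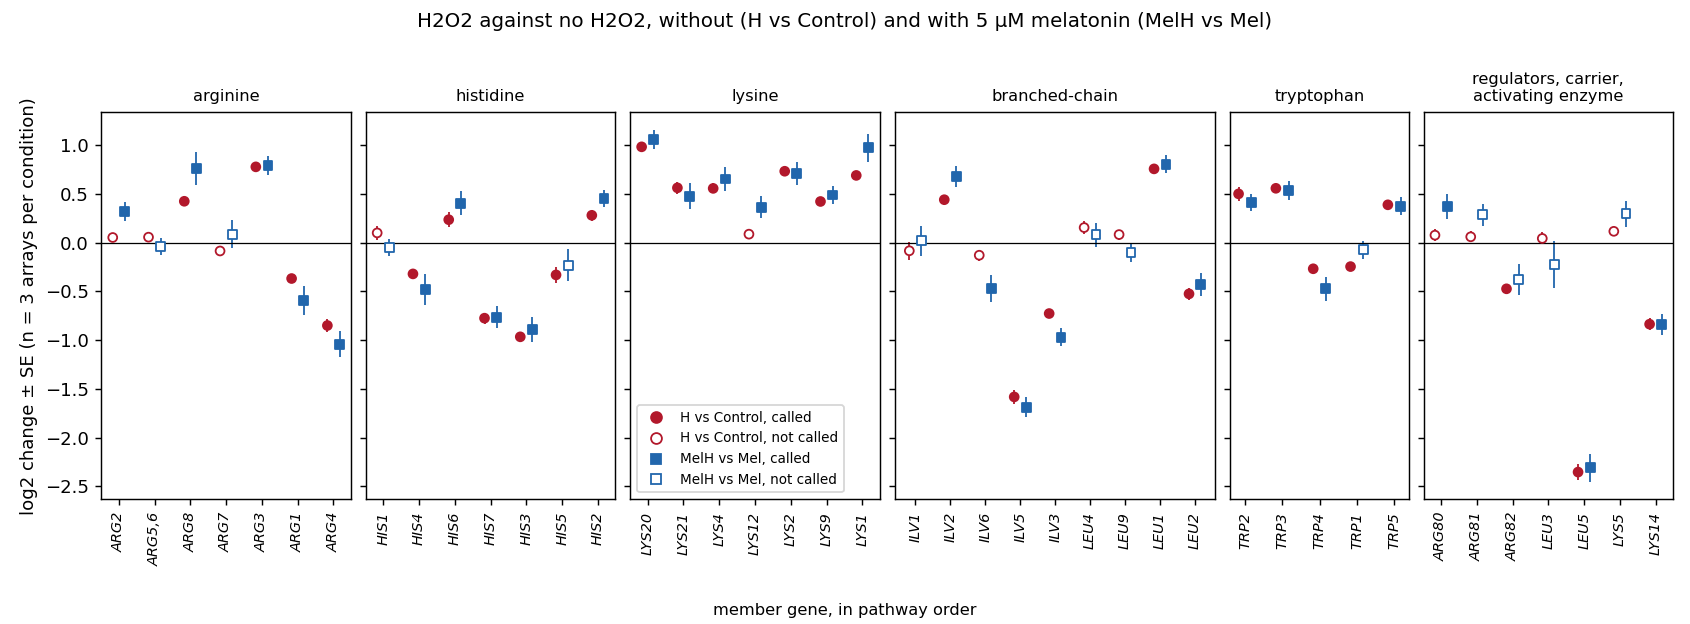
Log2 change ± SE of each member in H vs. Control (red circles) and MelH vs. Mel (blue squares), 3 arrays per condition, with members in pathway order; filled symbols were called at an adjusted p under 0.05. Relative to the 75th percentile every lysine enzyme lies above 0 in both, while each other pathway holds members on both sides of 0; on spike-in scaling the lysine medians are −0.86 and −0.36.

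Lysine synthesis in yeast runs through 2-aminoadipate. It starts with homocitrate synthase, for which *LYS20* and *LYS21* encode 2 closely related isozymes. *LYS20* had levels of 3.15, 3.26 and 3.13 in H, 3.22, 3.05 and 3.02 in MelH and 3.22, 3.04 and 3.15 in 25MelH, against 2.05, 1.98 and 2.09 in Mel and 2.17, 2.26 and 2.17 in Control. Every stressed array was above every unstressed one. The log2 change of *LYS20* was 0.98 ± 0.05 (SE) in H vs. Control, a 1.97-fold rise (adjusted p = 4.1e-05), and 1.06 ± 0.10 in MelH vs. Mel (adjusted p = 0.00018). With spike-in scaling these values were −0.44 and 0.05.

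*LYS21* was 0.56 ± 0.06 higher in H vs. Control and 0.48 ± 0.14 higher in MelH vs. Mel. Signal that the probes of these related genes may share was not tested. *LYS4*, for homoaconitase, an iron-sulfur enzyme, was 0.55 ± 0.05 and 0.65 ± 0.12 higher. The next enzyme, homoisocitrate dehydrogenase, is encoded by *LYS12*, whose levels were 3.36, 3.36 and 3.31 in H and 3.24, 3.28 and 3.26 in Control. Its change of 0.09 ± 0.04 in H vs. Control missed the threshold (adjusted p = 0.093) with groups that did not overlap, and in MelH vs. Mel it was 0.36 ± 0.11 (adjusted p = 0.031). It had the smallest change of the 7 in both comparisons.

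Of the later steps, *LYS2*, for 2-aminoadipate reductase, was 0.73 ± 0.04 higher in H vs. Control. *LYS9* and *LYS1* encode the 2 saccharopine dehydrogenases that finish the pathway, and they were 0.42 ± 0.05 and 0.69 ± 0.05 higher. *LYS1* had 0.71, 0.70 and 0.72 in H, against 0.04, −0.05 and 0.08 in Control, while its Mel arrays spread between −0.44 and 0.04. Beside these enzymes, *LYS5*, whose product attaches the phosphopantetheine group that Lys2 needs, changed by 0.11 ± 0.04 in H vs. Control (adjusted p = 0.057). *LYS5* was called in MelH vs. Control alone, at 0.21 ± 0.07 (adjusted p = 0.032), and leaving out any of 5 of the 6 arrays in turn, all but MelH 2, put its adjusted p over the threshold, up to 0.085.

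*LYS14*, the gene of the pathway's own transcriptional activator, moved the other way. It had −3.07, −3.23 and −3.25 in H, −3.30, −3.31 and −3.26 in MelH and −3.29, −3.36 and −3.44 in 25MelH, against −2.32, −2.37 and −2.64 in Mel and −2.37, −2.31 and −2.35 in Control. No stressed array reached the lowest unstressed one. *LYS14* fell by 0.84 ± 0.06 in H vs. Control (adjusted p = 0.00011) and 0.84 ± 0.11 in MelH vs. Mel (adjusted p = 0.00087). Relative to the 75th percentile the RNA of the activator was thus lower on the same arrays on which 6 or 7 of its 7 pathway enzymes were called higher.

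Arginine is made from glutamate by way of ornithine and citrulline. The mitochondrial acetylated steps up to ornithine, encoded by *ARG2*, *ARG5,6*, *ARG8* and *ARG7*, had log2 changes of 0.05, 0.05, 0.42 and −0.09 in H vs. Control, and *ARG8*, for acetylornithine aminotransferase, was the one called. *ARG3*, for ornithine carbamoyltransferase, had −2.10, −2.14 and −2.02 in H, −2.10, −2.02 and −2.01 in MelH and −2.11, −1.99 and −1.92 in 25MelH, against −2.78, −2.73 and −2.98 in Mel and −2.86, −2.83 and −2.89 in Control. Stressed and unstressed arrays did not overlap. It was 0.78 ± 0.05 higher in H vs. Control, or 1.71-fold (adjusted p = 5.3e-05), and 0.65 lower on spike-in scaling.

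The enzymes after *ARG3* in the pathway went down. *ARG1*, for argininosuccinate synthetase, had 3.16, 3.22 and 3.15 in H, against 3.59, 3.50 and 3.55 in Control, a fall of 0.37 ± 0.04. *ARG4*, for argininosuccinate lyase, had −1.11, −0.99 and −1.15 in H and −0.14, −0.27 and −0.28 in Control. Its fall of 0.85 ± 0.06 (adjusted p = 0.00012) was the larger of these, and in MelH vs. Mel it was 1.04 ± 0.13 (adjusted p = 0.00069). Opposite calls within the pathway, *ARG3* higher and *ARG1* and *ARG4* lower, were made in all 4 comparisons of stressed with unstressed cells, relative to the 75th percentile. With median centring *ARG1* was not called in MelH vs. Mel (adjusted p = 0.071), MelH vs. Control (adjusted p = 0.31) or 25MelH vs. Control (adjusted p = 0.15), and on spike-in scaling the change of *ARG3* was below 0 in each. After normexp background correction neither *ARG3* nor *ARG4* was called in 25MelH vs. Control (adjusted p = 0.22 for both).

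*ARG80* and *ARG81*, for regulators of arginine genes, changed by 0.08 ± 0.06 and 0.06 ± 0.06 in H vs. Control and were not called. In MelH vs. Mel *ARG80* was called higher, at 0.37 ± 0.13 (adjusted p = 0.044). Leaving out Mel 1, Mel 3, MelH 1 or MelH 2 put it over the threshold, with an adjusted p up to 0.15, and a block for the slide gave 0.087. *ARG82* encodes an inositol polyphosphate kinase that takes part in this regulation, and it was 0.47 ± 0.04 lower in H vs. Control (adjusted p = 0.00012), with −2.66, −2.69 and −2.68 in H and −2.19, −2.23 and −2.19 in Control. After quantile normalization *ARG82* was at −0.080 (adjusted p = 0.094).

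Histidine synthesis uses phosphoribosyl pyrophosphate and ATP. Its committing enzyme, ATP phosphoribosyltransferase, is encoded by *HIS1*, whose change of 0.10 ± 0.07 in H vs. Control was not called. *HIS7*, for the amidotransferase in the middle of the pathway, had 1.55, 1.65 and 1.53 in H, against 2.29, 2.33 and 2.43 in Control. *HIS3*, for the dehydratase that follows it, had 0.38, 0.38 and 0.31 in H, 0.34, 0.40 and 0.12 in MelH and 0.20, 0.39 and 0.30 in 25MelH, against 1.39, 1.06 and 1.08 in Mel and 1.41, 1.27 and 1.30 in Control. Both genes were lower on every stressed array than on any unstressed one. The fall was 0.97 ± 0.05 for *HIS3* (adjusted p = 4.1e-05) and 0.78 ± 0.06 for *HIS7* (adjusted p = 0.00011).

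Smaller falls were called for *HIS4*, a trifunctional enzyme of the pathway, at 0.32 ± 0.05, and *HIS5*, the aminotransferase, at 0.33 ± 0.08. With median centring neither was called, at −0.065 (adjusted p = 0.29) and −0.075 (adjusted p = 0.47). *HIS6*, for the isomerase, and *HIS2*, for histidinol phosphatase, were called higher, at 0.23 ± 0.07 and 0.28 ± 0.06, and *HIS2* was 1.14 lower on spike-in scaling. In MelH vs. Mel the call for *HIS5* was absent (adjusted p = 0.26), and its Mel arrays held 1.65, 1.19 and 1.80, the middle number below all 3 Control arrays.

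**Figure D3:**
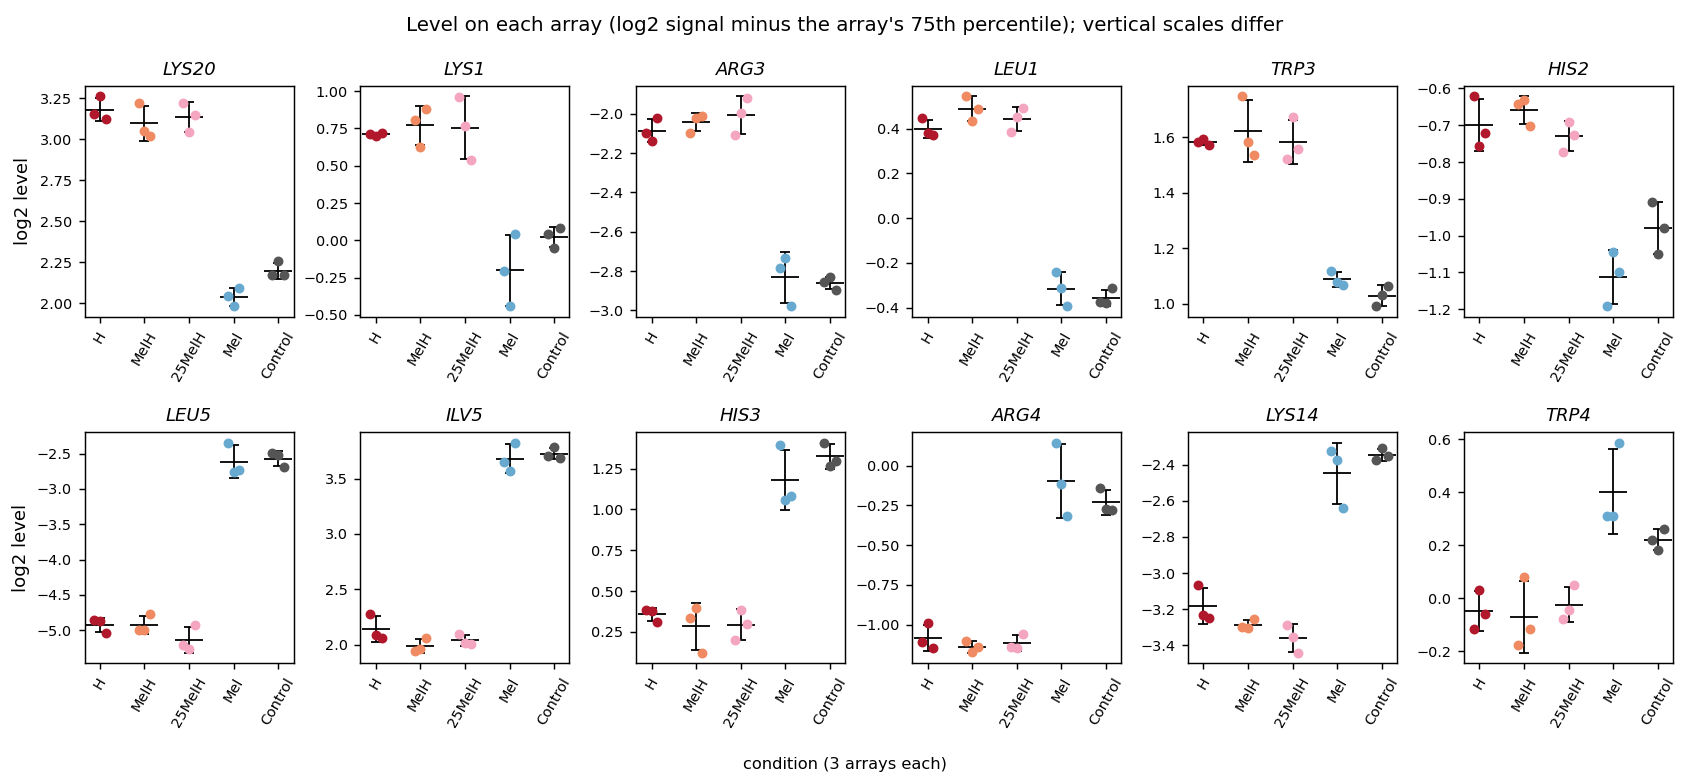
Log2 level (signal minus the array's 75th percentile) of 12 members on every array, with the 5 conditions side by side; points are arrays, and the bars give the mean and SD of 3. In the upper row the stressed arrays lie above the unstressed ones and in the lower row below them, with no overlap in any panel. On spike-in scaling all members of the upper row (*LYS20*, *LYS1*, *ARG3*, *LEU1*, *TRP3* and *HIS2*) are lower in H vs. Control.

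Leucine, isoleucine and valine share 3 mitochondrial enzymes. *ILV5*, for acetohydroxyacid reductoisomerase, which is also known for its part in keeping mitochondrial DNA stable, had 2.27, 2.09 and 2.06 in H, 1.95, 1.97 and 2.06 in MelH and 2.10, 2.01 and 2.01 in 25MelH. Its levels were 3.65, 3.56 and 3.82 in Mel and 3.70, 3.78 and 3.69 in Control. The groups lay more than 1 log2 unit apart without overlap. *ILV5* fell by 1.58 ± 0.07 in H vs. Control, 3.00-fold (adjusted p = 2.2e-05), and by 1.69 ± 0.10 in MelH vs. Mel (adjusted p = 3.4e-05), the largest fall among the 35 enzymes in both.

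*ILV3*, for dihydroxyacid dehydratase, an iron-sulfur enzyme that follows Ilv5, was 0.73 ± 0.05 lower in H vs. Control and 0.97 ± 0.09 lower in MelH vs. Mel. The step before them is catalysed by acetolactate synthase, whose catalytic subunit is encoded by *ILV2* and its regulatory subunit by *ILV6*. *ILV2* had 2.22, 2.25 and 2.23 in H and 1.81, 1.75 and 1.82 in Control, a rise of 0.44 ± 0.04 (adjusted p = 0.00023). *ILV6* changed by −0.13 ± 0.05 in H vs. Control (adjusted p = 0.076) and was 0.47 ± 0.14 lower in MelH vs. Mel (adjusted p = 0.027), where MelH held 0.92, 1.34 and 0.97. *ILV1*, for threonine deaminase, was not called in either comparison, at −0.08 ± 0.09 and 0.02 ± 0.15.

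In the leucine branch, *LEU4* and *LEU9*, for the isozymes of isopropylmalate synthase, changed by 0.15 ± 0.07 and 0.08 ± 0.05 in H vs. Control and were not called. *LEU1*, for isopropylmalate isomerase, an iron-sulfur enzyme, had 0.45, 0.38 and 0.37 in H, 0.54, 0.43 and 0.49 in MelH and 0.38, 0.45 and 0.49 in 25MelH, against −0.24, −0.31 and −0.39 in Mel and −0.38, −0.38 and −0.31 in Control. It was 0.76 ± 0.04 higher in H vs. Control (adjusted p = 4.6e-05) and 0.67 lower on spike-in scaling. *LEU2*, for the dehydrogenase that follows, had −0.08, −0.08 and −0.11 in H, against 0.36, 0.38 and 0.56 in Control, a fall of 0.53 ± 0.06. The neighbouring steps of *LEU1* and *LEU2* thus changed in opposite directions relative to the 75th percentile in H vs. Control.

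Of all 42 members *LEU5* changed most. It encodes a mitochondrial carrier known to be needed for coenzyme A in the matrix. Its levels were −4.86, −4.87 and −5.04 in H, −5.00, −4.99 and −4.78 in MelH and −5.21, −5.27 and −4.93 in 25MelH, against −2.34, −2.77 and −2.73 in Mel and −2.50, −2.53 and −2.69 in Control. No array of stressed cells came near the unstressed range. In H vs. Control *LEU5* was 2.35 ± 0.08 log2 units lower, or 5.11-fold (adjusted p = 1.1e-05), and 2.31 ± 0.14 lower in MelH vs. Mel (adjusted p = 3.3e-05). It was called lower under all 4 scalings that use the array's own genes in H vs. Control, MelH vs. Mel and MelH vs. Control. In 25MelH vs. Control the call was lost after normexp background correction, at −0.59 (adjusted p = 0.72). *LEU3*, for the activator of leucine genes, changed by 0.04 ± 0.06 in H vs. Control, and its Mel arrays held −2.85, −2.85 and −1.97, the widest spread of any member in any condition (SD 0.51).

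Tryptophan is made from chorismate. Anthranilate synthase is a complex of the products of *TRP2* and *TRP3*, of which Trp3 also carries the indoleglycerol phosphate synthase activity, and both genes were higher in H vs. Control, by 0.50 ± 0.07 and 0.56 ± 0.04. *TRP3* had 1.58, 1.60 and 1.57 in H, 1.75, 1.58 and 1.54 in MelH and 1.52, 1.67 and 1.56 in 25MelH, against 1.12, 1.08 and 1.07 in Mel and 0.99, 1.03 and 1.07 in Control. The stressed arrays lay above all unstressed ones (adjusted p = 8.8e-05 in H vs. Control), and on spike-in scaling the change was −0.87. *TRP5*, for tryptophan synthase, was 0.39 ± 0.05 higher.

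The enzymes between them went the other way relative to the 75th percentile. *TRP4*, for anthranilate phosphoribosyltransferase, had −0.12, 0.03 and −0.06 in H, against 0.22, 0.18 and 0.26 in Control, a fall of 0.27 ± 0.05 (adjusted p = 0.0054). With median centring this change was −0.01, with an adjusted p of 0.85. *TRP1*, for the isomerase, was 0.25 ± 0.05 lower in H vs. Control, where median centring gave 0.010 (adjusted p = 0.84), and changed by −0.08 ± 0.09 in MelH vs. Mel, where it was not called. In MelH vs. Mel *TRP4* was 0.47 ± 0.12 lower (adjusted p = 0.016), a call lost without MelH 1 or MelH 3, where the adjusted p was 0.063 and 0.051. Its call in MelH vs. Control was lost without Control 1, Control 3, MelH 1 or MelH 3, with an adjusted p up to 0.067, and with median centring.

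Beside the 42 members, 17 genes with other names also work in these pathways or feed them. In H vs. Control 7 of these 17 were called higher and 5 lower. That is 70.6% called, beside 68.4% of all genes, 27.2% higher and 41.2% lower. In MelH vs. Mel 5 were called higher and 3 lower, or 47.1%, beside 52.9% of all genes, 21.9% higher and 31% lower. *BAT2*, for the cytosolic branched-chain aminotransferase, had −0.14, −0.13 and −0.20 in H, against 0.86, 0.82 and 0.98 in Control, and fell by 1.04 ± 0.06. Its mitochondrial counterpart *BAT1* changed by −0.06 ± 0.05. The mitochondrial carriers for ornithine, *ORT1*, and oxaloacetate, *OAC1*, fell by 0.50 ± 0.05 and 0.50 ± 0.04 in H vs. Control. In MelH vs. Mel *ORT1* fell by 0.54 ± 0.10 (adjusted p = 0.0035), but *OAC1* changed by 0.006 ± 0.14 (adjusted p = 0.97). Melatonin alone (Mel vs. Control) had *OAC1* at −0.47 ± 0.14, which was not called (adjusted p = 0.31).

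*HOM2* and *HOM6*, for early steps of threonine synthesis, rose by 0.66 ± 0.07 and 0.49 ± 0.06 in H vs. Control. *ARO7*, for chorismate mutase, rose by 0.52 ± 0.10, all relative to the 75th percentile. On spike-in scaling these 3 changed by −0.76, −0.93 and −0.90. *HOM3*, of the same synthesis, was called lower relative to the 75th percentile, at −0.34 ± 0.05 in H vs. Control (adjusted p = 0.0013). It was not called in MelH vs. Mel, at −0.19 ± 0.12 (adjusted p = 0.23). *GCN4* had 3.06, 3.11 and 2.98 in H, against 2.93, 3.06 and 2.98 in Control. Its change was 0.06 ± 0.06 relative to the 75th percentile (adjusted p = 0.41) and −1.36 on spike-in scaling (adjusted p = 2.7e-06). These are levels of its RNA, whereas its control is known to act mainly on translation. In H vs. Control *GCN2* was 0.27 ± 0.05 lower and *MCM1* 0.20 ± 0.06 lower (adjusted p = 0.024), relative to the 75th percentile. *CAR1*, for arginase, was 0.72 ± 0.13 higher, with −0.70 on spike-in scaling. *CAR2*, also for arginine breakdown, changed by −0.07 ± 0.19 and was not called, with −1.49 on spike-in scaling (adjusted p = 3.1e-05). In MelH vs. Mel *CAR1* was 0.53 ± 0.09 higher and *CAR2* 0.55 ± 0.15 lower (adjusted p = 0.0031 and 0.017). *GCN2* and *MCM1* were not called there, at −0.13 ± 0.13 and −0.09 ± 0.13 (adjusted p = 0.46 and 0.57).

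Whether the same members changed when cells had grown with 5 μM melatonin was asked with MelH vs. Mel, which shares no array with H vs. Control. Here 30 members were called, 18 higher and 12 lower, beside 52.9% of all genes, 21.9% higher and 31% lower. The lysine enzymes were called higher in 7 of 7 cases relative to the 75th percentile, with a median of 0.65, and that median was −0.36 on spike-in scaling. Medians of the other pathways were 0.37 for tryptophan, 0.08 for arginine, −0.10 for the branched-chain enzymes and −0.23 for histidine. Median centring gave 20 members higher and 7 lower, and spike-in scaling 0 higher and 34 lower, with medians of all genes of 0.17 and −1.06. With the slide as a block 26 members were called, 25 within slide 1 and 13 within slide 2. Of the 30 calls, those of *LYS12*, *LYS21* and *TRP5* were lost after quantile normalization, those of *ARG1*, *HIS4*, *ILV6*, *LEU2* and *TRP4* with median centring and those of *ARG2* and *ARG80* after normexp, and 13 higher and 7 lower ones were made in all 4 scalings.

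In both comparisons 15 members were called higher and 11 lower, beside 18.1% and 29.3% of all genes, and 0 were called in opposite directions, against 2 of all genes. The sign was the same for 36 of 42 members, or 85.7%, beside 88.6% of all genes. *ARG82*, *HIS5* and *TRP1* were called in H vs. Control and not in MelH vs. Mel, and *ARG2*, *ARG80*, *ILV6* and *LYS12* the other way round. The difference between the comparisons was tested directly, as the contrast (MelH − H) − (Mel − Control) on 12 arrays, and 0 members passed, beside 0.37% of all genes. At an unadjusted p under 0.05 there were 4 members, *ARG2*, *ILV2*, *ILV3* and *LYS12*, beside 10.3% of all genes, and for all 42 the difference lay between −0.34 and 0.33.

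Set against the same Control arrays, MelH changed 28 members, 14 higher and 14 lower, beside 62.5% of all genes, 25.2% higher and 37.3% lower. In 25MelH there were also 28, 14 higher and 14 lower, beside 65.5%, 26.2% higher and 39.3% lower. Both share the Control arrays with H vs. Control. Median centring gave 25 higher and 7 lower in MelH vs. Control and 25 higher and 8 lower in 25MelH vs. Control, and spike-in scaling 0 higher and 42 lower in each. Within slide 1 there were 24 in each, and within slide 2 there were 10 and 9. After normexp background correction 2 members were called in 25MelH vs. Control, *HIS3* and *ILV5*, both lower.

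Together with H vs. Control and MelH vs. Mel this makes 4 comparisons of stressed with unstressed cells, and 13 members were called higher and 10 lower in all 4, beside 16.6% and 28.1% of all genes. These comparisons are not independent, since the MelH arrays also enter both MelH vs. Mel and MelH vs. Control. The groups did not overlap for 33 members in H vs. Control (73.8% of all genes), 32 in MelH vs. Mel (63.4%), 33 in MelH vs. Control (69.3%) and 36 in 25MelH vs. Control (71.8%). The lysine pathway gave 6 of the higher ones, tryptophan 3, the branched-chain pathway 2, and arginine and histidine 1 each, relative to the 75th percentile. Lower in all 4 were 3 branched-chain, 2 arginine, 2 histidine and 1 tryptophan enzyme, together with *LEU5* and *LYS14*. With the 75th percentile, lysine was the one pathway of the 5 with calls in a single direction. With median centring tryptophan was a second, since *TRP1* and *TRP4* were not called in any of the 4, and on spike-in scaling all pathways went down in H vs. Control. After normexp background correction no lysine or tryptophan enzyme was called in 25MelH vs. Control, where only *HIS3* and *ILV5* remained.

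Melatonin without stress (Mel vs. Control) changed 0 of the 42 members at the adjusted threshold, beside 0.353% of all genes, and 4 at an unadjusted p under 0.05, beside 10.4%. *ARG8* came nearest, with −2.52, −2.25 and −2.57 in Mel, against −1.99, −1.96 and −1.95 in Control. Its groups did not overlap, and the change was −0.48 ± 0.11 (adjusted p = 0.19). The others were *ILV2*, at −0.28 ± 0.10, *ARG80*, at −0.27 ± 0.10, and *HIS1*, at 0.20 ± 0.08. With all 15 arrays in one fit *ILV2* was called lower (adjusted p = 0.048). The 95% interval of the change lay within 0.5 of 0 for 32 members, beside 67% of all genes, so that larger changes of the other 10 are not excluded by these arrays.

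**Figure D4:**
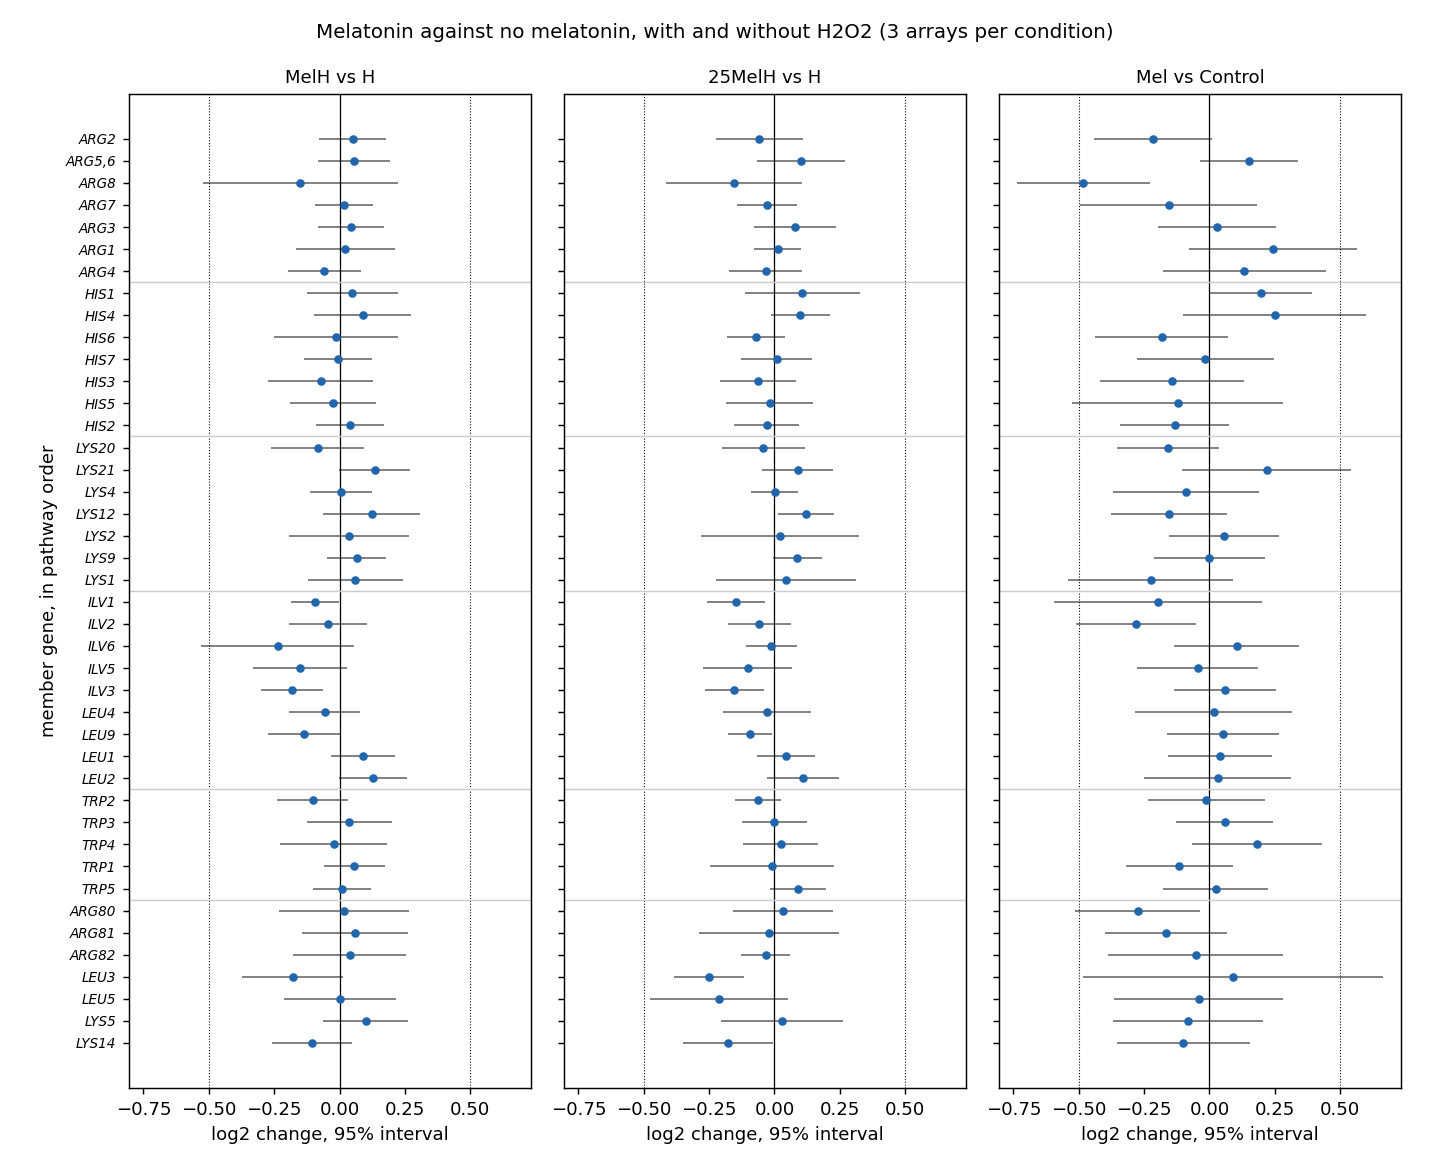
Log2 change of each member with its 95% interval in MelH vs. H, 25MelH vs. H and Mel vs. Control, 3 arrays per condition, with dotted lines at ±0.5. No member was called in any of them, and the intervals were wider in Mel vs. Control, where 10 reached past a dotted line, against 2 in MelH vs. H and 0 in 25MelH vs. H.

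Under stress, 5 μM melatonin (MelH vs. H) changed 0 members (0% of all genes), and 2 at an unadjusted p under 0.05, beside 12.5%. *ILV3* had 0.54, 0.58 and 0.50 in MelH, against 0.78, 0.71 and 0.68 in H, without overlap, a change of −0.18 ± 0.05 (adjusted p = 0.32). *ILV1* had 0.91, 0.91 and 0.88 in MelH and 1.00, 0.99 and 0.99 in H, at −0.10 ± 0.04 (adjusted p = 0.39). For 40 members the 95% interval lay within 0.5 of 0, beside 82.9% of all genes. The median change was 0.06 for the lysine enzymes and −0.10 for the branched-chain enzymes.

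The higher dose (25MelH vs. H) also gave 0 calls (0% of all genes), and 6 members at an unadjusted p under 0.05, beside 15.9%. *LEU3* had −2.80, −2.82 and −2.95 in 25MelH, against −2.58, −2.60 and −2.65 in H, at −0.25 ± 0.05 (adjusted p = 0.21), and after normexp background correction the change was 0.42. *ILV3* and *ILV1* were at −0.15 ± 0.04 each (adjusted p = 0.25 and 0.26), and the remaining 3 were *LEU9*, *LYS12* and *LYS14*, at −0.09, 0.12 and −0.18. All 42 intervals lay within 0.5 of 0, beside 83.9% of all genes. Both doses were set against the same H arrays, and set against each other (25MelH vs. MelH) they differed in 0 members (0%), with 0 at an unadjusted p under 0.05 as well, beside 1.38%, and with 41 intervals within 0.5 of 0, beside 83.5%. The groups did not overlap for 10 members in MelH vs. H (21.7% of all genes), 10 in 25MelH vs. H (24.6%), 1 in 25MelH vs. MelH (5.75%) and 10 in Mel vs. Control (18.5%).

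The spread between replicates differed among the conditions. The median SD of the 42 members was 0.04 in H, 0.08 in MelH and 0.07 in 25MelH, against 0.13 in Mel and 0.06 in Control. The widest members were *HIS1* in H (0.12), *ARG8* in MelH (0.30), *LYS2* in 25MelH (0.23), *LEU3* in Mel and *ILV1* in Control (0.18). The wider Mel arrays enter Mel vs. Control and MelH vs. Mel, in which 32 and 7 members had intervals within 0.5 of 0. For MelH vs. Mel that compares with 25.9% of all genes, and in H vs. Control there were 20 members, beside 39.8%.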

How the data were processed

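RNA of strain QA23 was measured on 15 single-colour arrays, 3 per condition, with conditions taken from the sample labels. Linear intensity values in arbitrary units, with the background already subtracted, come per the file headers from Feature Extraction 12.0.1.1. The deposited matrix holds normalized log2 values centred per probe, and 6 of its columns equal the scanner values of their own sample and 9 those of another sample (r of at least 0.9999, with the next best at most 0.902). It was used for this check only, and direction was taken from the scanner tables.

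Control spots and spots marked as outliers (1 to 84 per array) were left out, and 0 were saturated. Spots of a probe were averaged on the log2 scale, each array's 75th percentile was taken off, and the probe with the highest mean was kept for a gene, which dropped 32 of 6256 probes. Each member has 1 probe. Names came from RefSeq through the systematic name, for 5642 of 6224 genes. Each comparison was fitted on its own 6 arrays with limma 3.58.1 (lmFit, eBayes, two-sided) under R 4.3.3, and tested on simulated data. Files were handled with jsonlite 2.0.0 and version 1.17.8 of the R package for data tables. Dim probes were kept. The number of arrays limits the precision.

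The members, set by gene name, and the lists and tests were chosen with earlier results of these data known. In H vs. Control and MelH vs. Mel any member may be named. For the alternatives, in each comparison and pathway the called members with the largest rise and fall were recomputed, or the 3 with the smallest p where none was called. Same-numbered arrays deviated together in every pair in Mel vs. Control (r of 0.11 to 0.28) and MelH vs. H (0.14 to 0.31), and in no further comparison. That the numbers are pairs in these rests on the data alone. The main fits did not use the pairs, and the replicate number entered only as a block among the alternatives. The 15 arrays sat on 2 slides that each held all 5 conditions. Alternatives were other scalings, normexp background correction (offset 50, on median signals), a filter on dim probes, the mean of a gene's probes, 1 fit over all arrays, slide and replicate blocks, each slide alone and each array left out.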

Additional observations from a re-analysis of the deposited data

How the results depend on the processing

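With 3 arrays per condition the smallest called change of a member in H vs. Control was 0.23 (*HIS6*), and within a slide a condition had 1 or 2 arrays. A lone array was there assumed to vary like the other conditions. Filtering dim probes and averaging the probes of a gene kept the number of called members within 1.5 times in all 9 comparisons, as did quantile normalization, median centring and spike-in scaling, but the last 2 changed the directions as given above. Numbers of called members that moved further were those within slide 2, at 13 in H vs. Control, 13 in MelH vs. Mel, 10 in MelH vs. Control and 9 in 25MelH vs. Control, the 2 in 25MelH vs. Control after normexp and the 1 in Mel vs. Control with all arrays in one fit. Leaving out each array in turn gave 28 to 30 called members in H vs. Control, 22 to 29 in MelH vs. Mel, 24 to 29 in MelH vs. Control, 25 to 28 in 25MelH vs. Control and 0 elsewhere. With the replicate number as a block, 29 members were called in H vs. Control, 30 in MelH vs. Mel, 24 in MelH vs. Control, 25 in 25MelH vs. Control and 0 in Mel vs. Control, MelH vs. H and the other comparisons, and no number of calls moved by over 1.5 times. The calls of *LYS5* (adjusted p = 0.065) and *TRP4* (adjusted p = 0.051) in MelH vs. Control were lost under this block, where same-numbered arrays did not deviate together in every pair.

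Median log2 changes of the pathways in H vs. Control under quantile normalization were −0.51 for histidine, 0.39 for lysine, −0.21 for the branched-chain enzymes and 0.20 for tryptophan. With median centring they were 0.31 for arginine, −0.065 for histidine, 0.82 for lysine, 0.17 for the branched-chain enzymes and 0.64 for tryptophan, and on spike-in scaling −1.37, −1.74, −0.86, −1.51 and −1.03 in the same order. The arginine median was −0.052 within slide 1 and −0.014 within slide 2. With a slide block the branched-chain median was −0.061, and it was −0.12 within slide 1, −0.00083 within slide 2 and −0.14 to 0.017 with an array left out, above 0 without Control 1. The lysine median was 0.63 within slide 2. In MelH vs. Mel the quantile values were 0.19 for arginine, −0.42 for histidine, 0.54 for lysine, −0.18 for the branched-chain enzymes and 0.20 for tryptophan. Median centring gave 0.31 for arginine, −0.012 for histidine, 0.87 for lysine, 0.12 for the branched-chain enzymes and 0.59 for tryptophan, and spike-in scaling −0.93 for arginine, −1.24 for histidine, −0.36 for lysine, −1.11 for the branched-chain enzymes and −0.64 for tryptophan. Within slide 1 arginine was −0.055, lysine 0.60 and the branched-chain enzymes −0.23. With an array left out arginine was −0.059 to 0.17, below 0 without Mel 3, histidine −0.41 to −0.11, and lysine 0.61 to 0.73. The cause of these shifts was not tested.

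Single members that changed sign did so mostly on spike-in scaling. In H vs. Control these were *LYS20* (−0.44), *ARG3* (−0.65), *LEU1* (−0.67), *TRP3* (−0.87) and *HIS2* (−1.14), and in MelH vs. Mel *LEU1* (−0.21), *ARG3* (−0.22), *TRP3* (−0.48), *HIS2* (−0.56) and *ARG80* (−0.64). In MelH vs. Control they were *LYS20* (−0.39), *LEU1* (−0.44), *ARG3* (−0.47), *TRP3* (−0.69), *HIS2* (−0.96) and *LYS5* (−1.07), and in 25MelH vs. Control *LYS20* (−0.63), *ARG3* (−0.71), *LEU1* (−0.77), *TRP3* (−1.01) and *HIS2* (−1.32). Uncalled members also changed sign there, *ILV1* in MelH vs. H (0.041), *ILV6* (−0.056) and *TRP5* (−0.20) in 25MelH vs. MelH, and *ILV3* in the difference of melatonin effects (0.17). Normexp turned *LEU3* in 25MelH vs. H (0.42) and *LEU5* (1.1) and *TRP5* (−0.070) in 25MelH vs. MelH, and median centring *TRP4* in 25MelH vs. Control (0.028).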
